A study of Homo sapiens with 6 samples.

Results

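DNA replication genes were set against genes of mitosis in LX-2 cells. The S phase genes were MCM2, RRM1 and CHAF1A, and the mitosis genes were HMMR, PLK1 and CDC27. They are 6 of the 1699 genes in an opposite-strand reading of the counts. In that reading a gene is given the counts of non-coding rows whose exons lie, by at least 50 bp, opposite the exons of that gene alone. The 6 genes were chosen because their levels in these same libraries were already known, MCM2 for its rise after FEBJ. Their levels and fold changes are therefore described without a test.

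LX-2 is a human line of hepatic stellate cells, the liver cells that lay down scar matrix, and all samples were wild type. Cells were kept for 24 h with FEBJ (fruit extract of Brucea javanica, which holds many compounds), with cynaroside (luteolin carrying a glucose) or with DMSO as the solvent control. Each group has 2 libraries of total RNA, 6 in all. No doses are given in the labels. Since separate cultures are not stated for the 2 libraries of a group, p-values measure only the spread between these libraries.

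A dividing cell copies its DNA in S phase and separates the copies in mitosis. Genes for replication are switched on by E2F factors at the passage from G1 to S phase. Many genes of mitosis are switched on later, in G2, through the MuvB complex. Stellate cells rest in a healthy liver and divide when they are activated, and LX-2 cells divide in culture.

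Each of the 6 genes was read from 1 non-coding row, and these rows differ in how much of the gene they face. Row lengths are summed exon lengths in GENCODE 29 on GRCh38. The submitters' processing notes name hg19 instead, and the 2 builds were not reconciled, so the positions given are those of GRCh38 only. PLK1 (chr16:23677656-23690367, plus strand) faces its row most fully, since 553 of 641 bp of the row, or 86.3%, lie opposite exons of the gene. For MCM2 (chr3:127598223-127622436, plus strand) the share was 1113 of 2779 bp, or 40.1%. It was below 20% for the other 4. RRM1 (chr11:4094707-4138876, plus strand) shares 63 of the 346 bp of RRM1-AS1, and CHAF1A (chr19:4402662-4445018, plus strand) shares 81 of 569 bp of its row. HMMR (chr5:163460203-163491945, plus strand) shares 113 of the 957 bp of HMMR-AS1, of which 616 bp lie outside the gene. CDC27 (chr17:47117703-47189422, minus strand) shares 126 of 673 bp. The remaining lengths lie opposite introns, apart from 448 bp of the MCM2 row outside the gene. CDC27 has near-identical pseudogene copies in the genome, so its counts are uncertain.

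**Figure D1:**
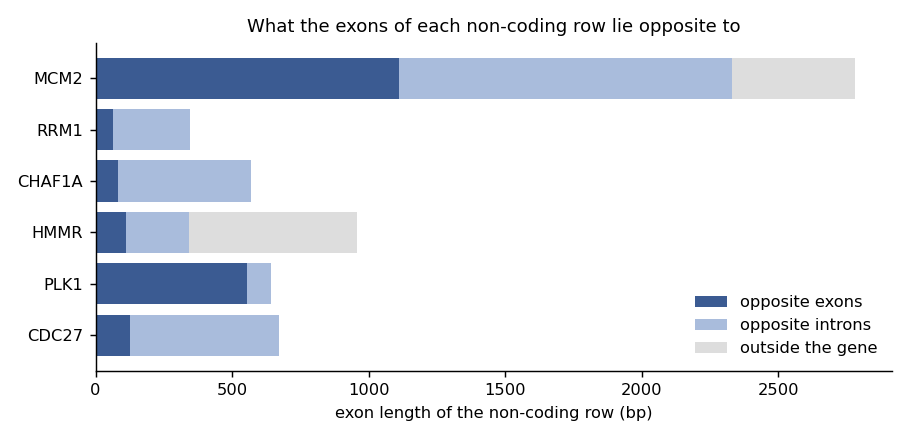
Exon length in bp of the non-coding row read for each gene, split into bases opposite exons of the gene, opposite its introns and outside it. The PLK1 row lies mostly opposite exons, while the rows of RRM1, CHAF1A and CDC27 lie mostly opposite introns.

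The kind of library and the strand setting of the counting step are not given in the sources used here, so reads of a gene and of its antisense partner cannot be told apart. The exon stretches below are where a row and the coding sequence of its gene coincide. They are shown for MCM2 (exon 14, chr3:127620698-127620880), PLK1 (exon 6, chr16:23687469-23687624) and CDC27 (exon 4, chr17:47169917-47170042), the genes with the largest rise, the largest share and the fall after FEBJ. They are written 5′ to 3′ in the sense of the gene from the GENCODE 29 transcripts, with no capitals because no part is marked.
MCM2 exon 14: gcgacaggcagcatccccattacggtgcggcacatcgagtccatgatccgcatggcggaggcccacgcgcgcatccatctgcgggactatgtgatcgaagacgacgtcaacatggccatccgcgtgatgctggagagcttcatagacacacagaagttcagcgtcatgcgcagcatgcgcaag
PLK1 exon 6: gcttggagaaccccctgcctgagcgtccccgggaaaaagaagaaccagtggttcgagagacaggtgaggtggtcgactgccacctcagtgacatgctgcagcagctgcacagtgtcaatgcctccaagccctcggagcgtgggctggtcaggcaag
CDC27 exon 4: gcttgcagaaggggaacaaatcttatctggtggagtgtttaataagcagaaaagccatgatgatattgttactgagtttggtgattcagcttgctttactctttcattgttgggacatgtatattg

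The 250 bases upstream of the start site are shown for MCM2, HMMR and PLK1 because they differ in the short motifs that cell cycle genes often carry. They come from RefSeq on GRCh38.p14, at chr3:127598161-127598410, chr5:163460382-163460631 and chr16:23678639-23678888, all on the plus strand. Capitals mark CCAAT, the CCAAT box, and TTTGAA, the CHR element of G2 and mitosis genes, on either strand, with overlapping matches merged.
MCM2 upstream: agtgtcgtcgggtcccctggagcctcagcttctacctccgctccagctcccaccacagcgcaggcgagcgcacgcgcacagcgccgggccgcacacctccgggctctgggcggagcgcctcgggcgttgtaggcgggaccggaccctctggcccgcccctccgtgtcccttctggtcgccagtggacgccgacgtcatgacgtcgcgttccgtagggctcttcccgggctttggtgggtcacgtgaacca
HMMR upstream: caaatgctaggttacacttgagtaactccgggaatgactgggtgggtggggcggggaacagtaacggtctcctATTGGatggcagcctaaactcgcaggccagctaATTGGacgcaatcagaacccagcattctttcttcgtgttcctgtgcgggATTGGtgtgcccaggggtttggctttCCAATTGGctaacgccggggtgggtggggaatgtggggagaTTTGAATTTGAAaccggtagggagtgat
PLK1 upstream: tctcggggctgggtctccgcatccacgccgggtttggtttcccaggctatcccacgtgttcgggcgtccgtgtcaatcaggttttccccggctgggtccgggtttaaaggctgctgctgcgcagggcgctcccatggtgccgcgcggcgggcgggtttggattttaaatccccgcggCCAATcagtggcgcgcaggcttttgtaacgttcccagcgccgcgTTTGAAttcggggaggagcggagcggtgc

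In windows reaching from 250 bases before to 50 after the start, PLK1 held TTTGAA at position -29 and HMMR held it at -28 and -22, one after the other. RRM1 held it at -199 on the other strand, and MCM2, CHAF1A and CDC27 had no match. All 27305 RefSeq promoters were searched on both strands in the same way. TTTGAA was in 15.4% of them, in 56 of 104 other listed mitosis genes and in 5 of 88 other listed S phase genes. CCAAT, in 35.7% of all promoters, was in those of RRM1, CHAF1A, HMMR, PLK1 and CDC27. The E2F motif was searched as TTTCCCGC, TTTGGCGC, TTTCGCGC and TTTGCCGC, and at least 1 of these was in 3.33% of all promoters. The same held for 29 of 88 other listed S phase promoters and 12 of 104 mitosis promoters. Of the 6 genes MCM2 held TTTCGCGC, 2 and 6 bases past the start on opposite strands in overlapping matches, beyond the stretch printed above, and the other 5 genes had no match. A match of letters is a description of the sequence, and no match says only that these letters are not in this window.

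The gene rows of a library held between 1599000 and 4709317 counts, 5.48 to 6.12% of what each table counted, and the opposite-strand reading took 686079 to 2007084 of them. The shallowest and the deepest library were both of the cynaroside group. Levels in the reading are given in CPM, the count over the TMM-scaled total of the reading times 1e6. Of the 12 stellate cell markers, LRAT, COL1A2 and DES had 0 counts in their own rows. The own rows of this list summed to 195 and 261 counts after FEBJ, 253 and 565 after cynaroside and 2514 and 3601 in DMSO. The summed opposite-strand level of the 6 markers covered by the reading was 68080 to 68350 CPM after FEBJ, 104100 to 104200 CPM after cynaroside and 130900 to 131400 CPM in DMSO. Counts given for the other lists are also of own rows. Of 8 hepatocyte markers ALB, TTR and HNF4A were at 0, and the rest summed to 34 and 43 counts after FEBJ, 0 and 8 after cynaroside and 2 and 2 in DMSO, with SERPINA1 the highest. The macrophage list summed to 26 and 43 counts after FEBJ, 10 and 17 after cynaroside and 11 and 9 in DMSO. PTPRC and CD163 of macrophages, PECAM1, CDH5 and VWF of endothelium and EPCAM and KRT19 of bile duct were at 0. The endothelial list nevertheless summed to 426 and 563 counts after FEBJ, 247 and 702 after cynaroside and 354 and 527 in DMSO. Its highest gene was STAB1. The bile duct list summed to 3874 and 5373 counts after FEBJ, 968 and 2675 after cynaroside and 4578 and 6686 in DMSO, with KRT8 the highest of the list. In the opposite-strand reading its 2 covered markers summed to 1039 and 876 CPM after FEBJ, 92.7 and 56.0 CPM after cynaroside and 167 and 155 CPM in DMSO, so they were highest in the FEBJ libraries, as MCM2, RRM1, CHAF1A and HMMR were. The part of these markers in the results below was not tested.

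After FEBJ all 3 S phase genes had higher levels than in DMSO, MCM2 by 5.11-fold, CHAF1A by 3.48-fold and RRM1 by 2.40-fold. Of the mitosis genes HMMR was 2.00-fold higher, PLK1 was within 1.05-fold of DMSO and CDC27 was 2.44-fold lower. A lower or higher level in these bulk libraries can come from fewer or more cells in a phase of the cycle or from less or more RNA per cell, which cannot be told apart. In the comparison of FEBJ with DMSO, both libraries were above both DMSO libraries for 5 of the 6 genes, PLK1 included, and below them for CDC27. Among all 1443 genes tested in the reading, 43.2% lay above and 40.9% below in this way, and 35.8% rose and 34.7% fell by the quasi-likelihood test of edgeR at a Benjamini-Hochberg adjusted p of 0.05. Nothing is read from the counts of the 6 genes against these shares, since the genes were chosen on this comparison.

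MCM2 encodes a subunit of the replicative helicase, which is loaded onto origins in G1 and unwinds DNA in S phase. Its level was 20768 and 21286 CPM in the FEBJ libraries, 3858 and 3613 CPM in the cynaroside libraries and 4068 and 4163 CPM in the DMSO libraries. The FEBJ libraries stood far above all others, and the cynaroside libraries were just below those of DMSO, without overlap. The counts behind these levels were 21137 and 30264 after FEBJ, 2581 and 7103 after cynaroside and 4000 and 5969 in DMSO. The log2 fold change was 2.35 ± 0.03 (SE) for FEBJ and -0.14 ± 0.03 for cynaroside, each against DMSO. Of the 1443 genes, 94.6% had a lower log2 fold change than MCM2 after FEBJ, and 40.4% after cynaroside.

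RRM1, the large subunit of ribonucleotide reductase, makes the deoxynucleotides from which DNA is built. It stood at 1618 and 1468 CPM after FEBJ, at 543 and 615 CPM after cynaroside and at 598 and 682 CPM in DMSO. Both FEBJ libraries were above the other 4, and the cynaroside and DMSO libraries overlapped. Its log2 fold change was 1.26 ± 0.08 for FEBJ and -0.13 ± 0.09 for cynaroside.

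CHAF1A is the large subunit of chromatin assembly factor 1, which places histones on newly copied DNA. Its level was 757 and 710 CPM after FEBJ, 278 and 265 CPM after cynaroside and 229 and 195 CPM in DMSO. The groups did not overlap, with FEBJ highest and DMSO lowest. The log2 fold change was 1.80 ± 0.13 for FEBJ and 0.36 ± 0.14 for cynaroside.

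HMMR is a hyaluronan-binding protein that also sits on spindle microtubules. It was at 1322 and 1378 CPM after FEBJ, 873 and 749 CPM after cynaroside and 719 and 634 CPM in DMSO. The order of the groups was that of CHAF1A, again without overlap, although HMMR was grouped with mitosis. This gave log2 fold changes of 1.00 ± 0.08 for FEBJ and 0.25 ± 0.08 for cynaroside.

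PLK1 is the kinase that drives entry into mitosis, centrosome maturation and the later steps of division. It was at 1148 and 1160 CPM after FEBJ, 689 and 623 CPM after cynaroside and 1112 and 1084 CPM in DMSO. The cynaroside libraries were the low ones here, and the FEBJ libraries lay just above DMSO. The log2 fold change was 0.07 ± 0.08 for FEBJ, smaller than its error, and -0.76 ± 0.08 for cynaroside, a 1.69-fold lower level. Of the 6 genes PLK1 had the largest log2 fold change in size for cynaroside on this scaling.

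CDC27 is a subunit of the anaphase-promoting complex, the ubiquitin ligase that ends mitosis. Its level was 159 and 158 CPM after FEBJ, 335 and 428 CPM after cynaroside and 390 and 385 CPM in DMSO. The FEBJ libraries were below all others, and the cynaroside libraries lay on either side of DMSO. The log2 fold change was -1.29 ± 0.15 for FEBJ and 0.00 ± 0.13 for cynaroside. Its FEBJ counts were 162 and 225, with 95% exact Poisson intervals of 138 to 189 and 197 to 256 that cover counting error only.

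**Figure D2:**
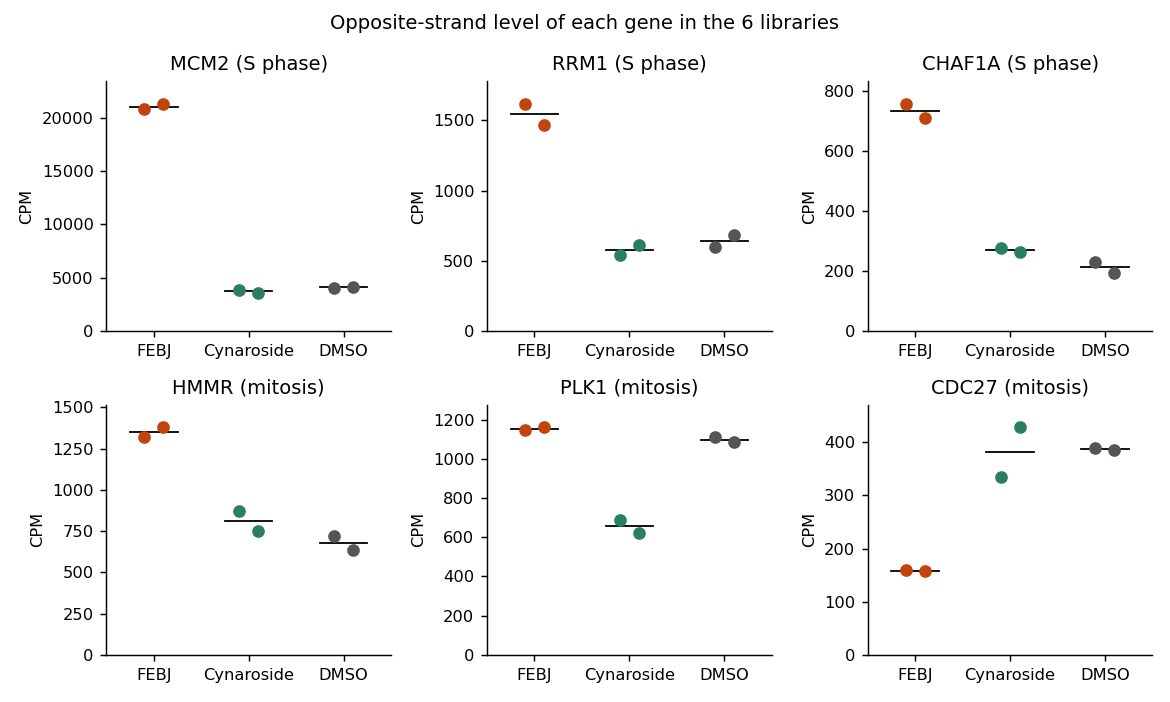
Level in CPM (y axis, from 0, a scale of its own in each panel) of the 6 genes in each library of FEBJ, cynaroside and DMSO; points are libraries and lines the means of 2. FEBJ is highest for MCM2, RRM1, CHAF1A and HMMR and lowest for CDC27, while cynaroside is lowest for PLK1.

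After cynaroside PLK1 differed more from DMSO than after FEBJ, and the other 5 genes had smaller log2 fold changes in size than after FEBJ. CHAF1A and HMMR were higher in both libraries, MCM2 and PLK1 lower in both, and RRM1 and CDC27 overlapped with DMSO. Among the 1443 genes, 34.7% lay above and 36.0% below DMSO in both libraries, and 20.2% rose and 21.6% fell by the same test, so 2 of 6 each way is near the background. The signs for cynaroside depend on the scaling. With the TMM factors of all deposited rows the median log2 fold change of the 1443 genes moved to 0.45 for cynaroside, against -0.01 with the factors of the reading, and to 0.27 for FEBJ, against 0.05. Under it, MCM2 was at 0.31, RRM1 at 0.33, CHAF1A at 0.82, HMMR at 0.71, PLK1 at -0.29 and CDC27 at 0.47 for cynaroside, so MCM2 and RRM1 changed sign. Rises made up 88.1% of the genes called for cynaroside on that scaling, against 48.3% with the factors of the reading. For FEBJ the same scaling gave 2.57, 1.48, 2.01, 1.22, 0.29 and -1.07 in the same order of genes, with no change of sign.

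FEBJ was also set directly against cynaroside. Both FEBJ libraries were above both cynaroside libraries for MCM2, RRM1, CHAF1A, HMMR and PLK1, and below them for CDC27, where 42.6% and 40.9% of all genes lay above and below. The log2 fold changes were 2.50 ± 0.03, 1.39 ± 0.08 and 1.44 ± 0.13 for MCM2, RRM1 and CHAF1A. They were 0.75 ± 0.08, 0.83 ± 0.08 and -1.29 ± 0.15 for HMMR, PLK1 and CDC27. PLK1 thus differed more between the 2 treatments than between FEBJ and DMSO, because its cynaroside level was low.

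Ratios of genes within a library do not depend on any scaling between libraries. The mean log2 count of the 3 S phase genes exceeded that of the 3 mitosis genes by 2.24 and 2.15 after FEBJ, by 0.51 and 0.52 after cynaroside and by 0.28 and 0.36 in DMSO. The groups did not overlap, and the step between FEBJ and the others was much larger than that between cynaroside and DMSO. Part of that step rests on MCM2, chosen for its rise, and on CDC27, whose counts are uncertain. Ratios without either gene rose less from DMSO to FEBJ than MCM2 over CDC27 did. The factors were 2.30 for RRM1 over PLK1, 1.21 for RRM1 over HMMR, 3.30 for CHAF1A over PLK1 and 1.73 for CHAF1A over HMMR. MCM2 held 18.1 and 18.4 counts per PLK1 count after FEBJ, 5.60 and 5.80 after cynaroside and 3.66 and 3.84 in DMSO. Against DMSO the ratio was thus 4.86-fold higher after FEBJ and 1.52-fold higher after cynaroside. MCM2 over CDC27 was 12.5-fold higher after FEBJ and 0.928 times the DMSO ratio after cynaroside.

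The split between S phase and mitosis did not hold for every pair of genes. RRM1 over HMMR was 1.22 and 1.07 counts per count after FEBJ, 0.622 and 0.821 after cynaroside and 0.832 and 1.08 in DMSO, so the FEBJ and DMSO libraries overlapped. HMMR over PLK1 was 1.15 and 1.19 after FEBJ, 1.27 and 1.20 after cynaroside and 0.647 and 0.585 in DMSO. That is a factor of 1.90 for FEBJ and 2.01 for cynaroside between 2 genes of mitosis. HMMR thus stood apart from PLK1 after both treatments.

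**Figure D3:**
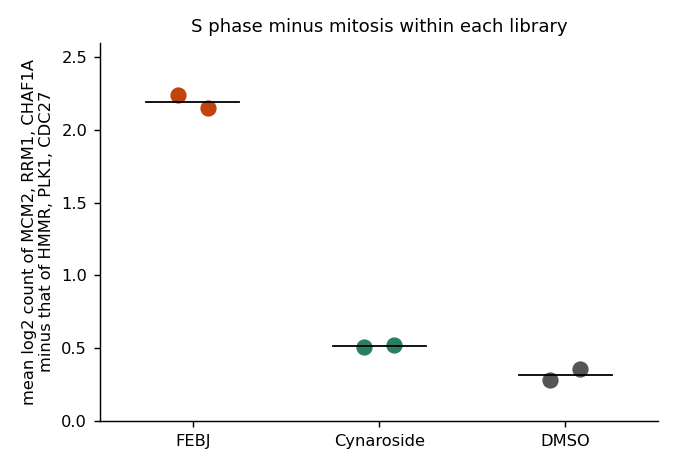
Mean log2 count of MCM2, RRM1 and CHAF1A minus that of HMMR, PLK1 and CDC27 (y axis, log2) in each library; points are libraries and lines the group means. The FEBJ libraries sit at 2.24 and 2.15, and the other 4 libraries lie between 0.28 and 0.52.

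Levels per kb of row exons take the length of the rows into account, though the rows face their genes to different extents, so the order below is one of rows. After FEBJ it was MCM2 (7566 CPM per kb), RRM1 (4460), PLK1 (1800), HMMR (1410), CHAF1A (1288) and CDC27 (236), and no neighbours overlapped between libraries. After cynaroside RRM1 (1673 CPM per kb) led MCM2 (1344), PLK1 (1023), HMMR (848), CDC27 (567) and CHAF1A (477), again without overlap. In DMSO RRM1 (1850 CPM per kb) and PLK1 (1712) overlapped, followed by MCM2 (1481), HMMR (707), CDC27 (575) and CHAF1A (373). On this length MCM2 led after FEBJ and not in the other groups. The level of the whole row was also divided by only the bases that face exons of the gene, 63 bp for RRM1 and 1113 bp for MCM2. This length was chosen after the data were seen. The quotient is not a level on those bases, since counts of the whole row enter it. By it RRM1 led MCM2 after FEBJ, at 24490 and 18890 CPM per kb. RRM1 also led after cynaroside (9188 CPM per kb) and in DMSO (10160 CPM per kb), with HMMR next in both (7178 and 5987 CPM per kb). The order of the genes thus depends on the length used.

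The own rows of the 6 genes held few counts. The MCM2 row held 104 and 145 counts after FEBJ, 23 and 62 after cynaroside and 62 and 161 in DMSO. That was 0.492 and 0.479% of the row opposite after FEBJ, 0.891 and 0.873% after cynaroside and 1.55 and 2.70% in DMSO. The PLK1 row held 15 and 17 counts after FEBJ, 2 and 8 after cynaroside and 61 and 135 in DMSO. Its share of the row opposite was 1.28 and 1.03%, 0.434 and 0.654%, and 5.58 and 8.69% in the same order. The share was highest in both DMSO libraries for MCM2, RRM1, CHAF1A, HMMR and PLK1, and in both FEBJ libraries for CDC27. Why it differed between groups was not tested. Own rows did not follow the opposite rows. The log2 fold change of the own row for FEBJ was 0.42 ± 0.29 for MCM2, -1.36 ± 0.70 for RRM1 and 0.05 ± 0.46 for CHAF1A. It was -1.32 ± 0.60 for HMMR, -2.34 ± 0.48 for PLK1 and 0.58 ± 0.52 for CDC27, so own and opposite rows had the same sign for MCM2 and CHAF1A and not for RRM1, HMMR, PLK1 or CDC27. For cynaroside all 6 own rows were lower than in DMSO, from -0.98 for MCM2 to -3.89 for PLK1. These values are descriptions, as they come from the comparisons on which the genes were chosen. Which of the rows follows the mRNA was not tested.

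Other genes of the same processes were taken from 5 lists for S phase and 6 for mitosis, with the 6 genes left out. In the opposite-strand reading 11 of 104 S phase genes passed the filter on low counts. After FEBJ 6 of them rose and 3 fell, with a median log2 fold change of 0.58, against 0.05 over all 1443 genes. Of all 1443 genes 35.8% rose and 34.7% fell. The 6 that rose included parts of the replication machinery. LIG1, the ligase that joins Okazaki fragments, was at 1689 and 1846 CPM after FEBJ and at 570 and 625 CPM in DMSO (log2 fold change 1.56 ± 0.08, Benjamini-Hochberg adjusted p = 1.50e-82 in edgeR's quasi-likelihood test). GINS3, a subunit of the GINS complex of the helicase, was at 413 and 452 CPM after FEBJ and at 185 and 197 CPM in DMSO (1.18 ± 0.15). RFC5, a subunit of the clamp loader, was at 1032 and 1009 CPM after FEBJ and at 471 and 470 CPM in DMSO (1.12 ± 0.09). CLSPN, a checkpoint mediator at the fork, rose by 1.00 ± 0.10, SSRP1, a subunit of the FACT histone chaperone, by 0.70 ± 0.05, and GINS4 by 0.58 ± 0.05 on the log2 scale. All 6 calls were unchanged in direction and threshold without any 1 library and under the other scalings, the replicate block and DESeq2.

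The 3 that fell after FEBJ were from the lists of G1/S regulators and nucleotide supply. Of the list of DNA polymerases and fork proteins only 3 of 30 genes could be read this way. Among 16 own rows of that list, described below, 1 rose and 1 fell after FEBJ. RBL2, a pocket protein that represses E2F targets in resting cells, was at 292 and 281 CPM after FEBJ and at 445 and 506 CPM in DMSO (-0.74 ± 0.12, adjusted p = 4.05e-09 by the same edgeR test). DUT, the enzyme that keeps uracil out of DNA, fell by 0.32 ± 0.09, and CDK2, the kinase of S phase entry, fell by 0.29 ± 0.09 on the log2 scale. With the TMM factors of all deposited rows neither DUT (adjusted p = 0.309) nor CDK2 (adjusted p = 0.504) was called by edgeR, and CDK2 was not called without FEBJ 1 (-0.20, adjusted p = 0.0774). RBL1, a pocket protein like RBL2, stood at the threshold (0.41 ± 0.20, adjusted p = 0.0501 by edgeR) and was called higher without DMSO 2 (0.65, adjusted p = 0.0237), with RLE scaling (adjusted p = 0.0479), with a replicate block (adjusted p = 0.0469) and with the TMM factors of all deposited rows. MTHFD1, an enzyme of folate metabolism, was not called (0.04 ± 0.07, adjusted p = 0.622 by edgeR), though it was called higher with the TMM factors of all deposited rows (0.25).

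Of the mitosis lists 5 of 123 genes could be read this way, and after FEBJ 2 rose and 1 fell, with a median of -0.09. SGO1, which protects cohesion at centromeres, was at 616 and 635 CPM after FEBJ and at 374 and 361 CPM in DMSO (0.77 ± 0.11), and KIF22, a kinesin that binds chromosomes, rose by 0.44 ± 0.09. NUMA1, which anchors microtubules at spindle poles, was at 1748 and 1689 CPM after FEBJ and at 3540 and 3705 CPM in DMSO (-1.08 ± 0.05, adjusted p = 7.08e-108 by the same edgeR test). CIT, a kinase of cytokinesis, stood at -0.31 ± 0.15 (adjusted p = 0.0595) and KIFC3, a kinesin, at -0.09 ± 0.09 (adjusted p = 0.361), neither of them called by edgeR. CIT was called lower without cynaroside 1 (-0.33, adjusted p = 0.0410) or cynaroside 2 (-0.32, adjusted p = 0.0485). CDKN2A, which encodes a CDK inhibitor, was the only gene of 7 in the list of CDK inhibitors that could be read. It rose after FEBJ, to 1024 and 983 CPM against 723 and 649 CPM in DMSO (0.55 ± 0.09).

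After cynaroside 3 of the 11 S phase genes rose and 1 fell, with a median of 0.16 against -0.01 over all genes, where 20.2% rose and 21.6% fell. This count depends on the scaling, since with the TMM factors of all deposited rows all 11 rose. RFC5 rose by 0.58 ± 0.10 on the log2 scale, to 767 and 656 CPM against 471 and 470 CPM in DMSO (adjusted p = 1.53e-08 by edgeR), the S phase call that held without any 1 library. The calls of RBL2 (0.28 ± 0.12), GINS4 (0.16 ± 0.05) and MTHFD1 (-0.18 ± 0.07) did not hold. The adjusted p of GINS4 by edgeR was 0.285 without DMSO 2. That of RBL2 was 0.108 without cynaroside 1, 0.0860 without cynaroside 2 and 0.307 without DMSO 1, and that of MTHFD1 was 0.0897, 0.229 and 0.176 without the same 3 libraries. MTHFD1 reversed to 0.29 with the TMM factors of all deposited rows. LIG1 (0.01 ± 0.08), GINS3 (-0.08 ± 0.16), CLSPN (0.20 ± 0.11) and SSRP1 (-0.07 ± 0.05), all called after FEBJ, were not called after cynaroside, though with the TMM factors of all deposited rows each of them was called higher. Set directly against cynaroside, FEBJ was higher for all 4, by 1.55 ± 0.08 for LIG1, 1.26 ± 0.15 for GINS3, 0.80 ± 0.10 for CLSPN and 0.77 ± 0.05 for SSRP1, and each was called by the edgeR test. In that comparison 7 of the 11 S phase genes rose and 3 fell, where 35.3% of all genes rose and 34.2% fell.

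All 5 mitosis genes passed the threshold after cynaroside, 3 higher and 2 lower, with a median of 0.29, and with the TMM factors of all deposited rows 3 were higher and 1 lower. KIF22 was at 333 and 422 CPM after cynaroside and at 697 and 700 CPM in DMSO (-0.85 ± 0.10, adjusted p = 3.93e-16 by edgeR), and KIFC3 fell by 0.48 ± 0.09. CIT rose to 422 and 364 CPM after cynaroside, against 222 and 241 CPM in DMSO (0.74 ± 0.15), and NUMA1 rose by 0.29 ± 0.05. KIFC3 was at -0.01 with the TMM factors of all deposited rows (adjusted p = 0.923 by edgeR). SGO1 was called higher (0.30 ± 0.12), but the adjusted p by edgeR was 0.611 without cynaroside 2, 0.0810 without DMSO 1 and 0.161 without DMSO 2. KIF22 and PLK1 were both lower after cynaroside and not after FEBJ, and NUMA1 and CDC27 were both lower after FEBJ and not after cynaroside. Between FEBJ and cynaroside the log2 fold change was 1.29 ± 0.10 for KIF22 and -1.37 ± 0.05 for NUMA1, both called by the edgeR test, while PLK1 and CDC27 were not tested.

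**Figure D4:**
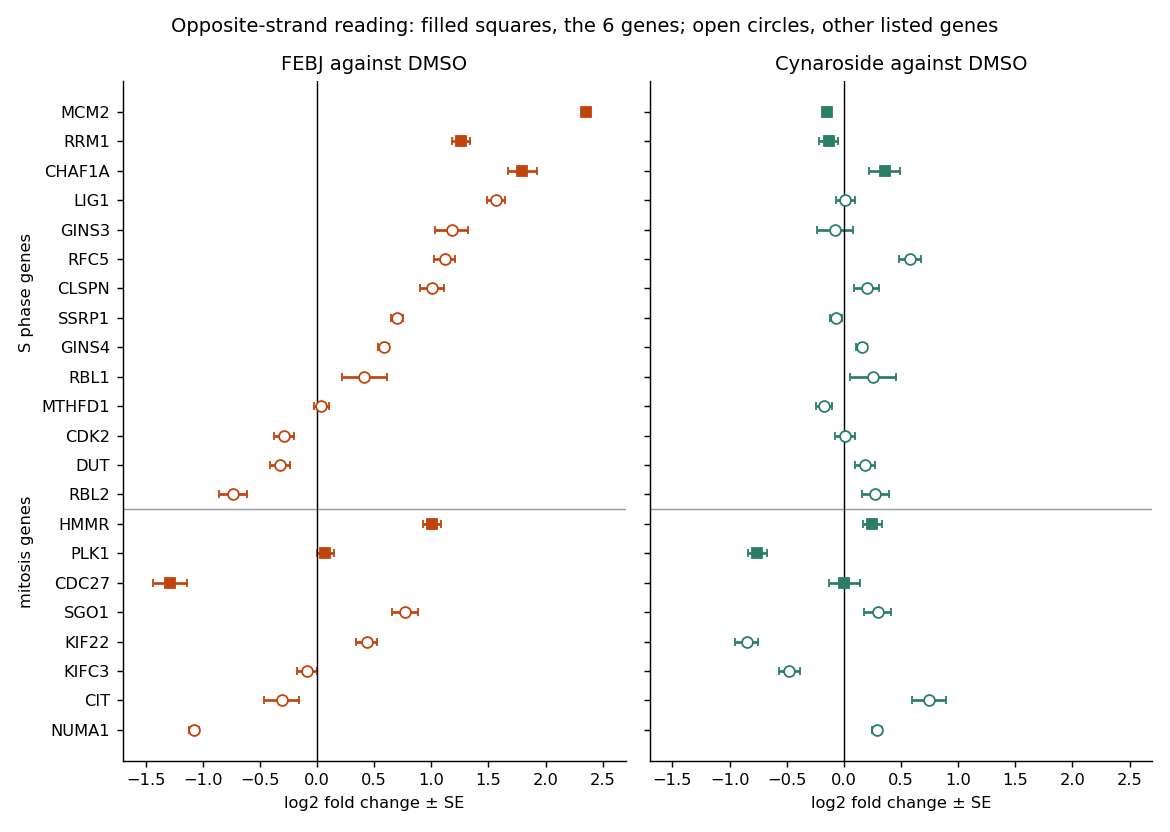
Log2 fold change ± SE (x axis) against DMSO in the opposite-strand reading, FEBJ left and cynaroside right, for S phase genes above the line and mitosis genes below it; filled squares are the 6 genes, open circles the other listed genes. S phase genes spread from 2.35 for MCM2 to -0.74 for RBL2 after FEBJ, and from -0.18 to 0.58 after cynaroside.

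The rows as deposited cover more of both lists, at far lower counts for genes that have a strong opposite row. Of 86 S phase rows tested 17 rose and 20 fell after FEBJ, and 8 rose and 36 fell after cynaroside, by the same edgeR test and threshold. Of 108 mitosis rows 11 rose and 53 fell after FEBJ, and 8 rose and 68 fell after cynaroside. Over all 12012 rows 26.0% rose and 24.8% fell after FEBJ, and 24.3% rose and 21.1% fell after cynaroside. The median log2 fold change was -0.23 for S phase and -1.42 for mitosis after FEBJ, against -0.06 over all rows. After cynaroside it was -0.96 for S phase and -1.99 for mitosis, against 0.02. Protein-coding rows with no annotated exon on the other strand had lower values as a class, however, with a median of -1.02 for FEBJ and -1.40 for cynaroside over 3911 rows. Of these 12.1% rose and 34.5% fell after FEBJ, and 8.64% rose and 39.0% fell after cynaroside. Of the listed rows in this class, 7 of 47 S phase rows rose and 13 fell after FEBJ, and 2 of 59 mitosis rows rose and 35 fell. After cynaroside 2 S phase rows rose and 24 fell, and 1 mitosis row rose and 49 fell.

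Rows of that class were therefore also scaled and fitted among themselves, which leaves 3882 rows with medians of -0.18 for FEBJ and -0.41 for cynaroside. On this scale 17.8% of the class rose and 15.7% fell after FEBJ. Of 48 S phase rows 9 rose and 2 fell, with a median of 0.14, and of 57 mitosis rows 5 rose and 24 fell, with a median of -1.44. After cynaroside 15.9% of the class rose and 14.6% fell, while 4 S phase rows rose and 11 fell (median -0.87), and 2 mitosis rows rose and 18 fell (median -1.54). The 24 mitosis rows that fell after FEBJ became 10 without DMSO 2, 12 without DMSO 1 and 15 without FEBJ 2, and the 18 after cynaroside became 7 without DMSO 2 and 10 without DMSO 1. The 9 S phase rises after FEBJ became 5 without DMSO 2 and 14 without cynaroside 1, and the 11 falls after cynaroside became 3 without DMSO 2 and 4 without DMSO 1. Among these rows 1 S phase and 3 mitosis genes had 0 counts in FEBJ or DMSO, and 1 and 2 in cynaroside or DMSO. With them set at the bound that 3 counts over the group allow, the 4 list medians stayed the same.

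By list, the falls after FEBJ on this scale were 8 of 10 rows for spindle and motors, 3 of 5 for cytokinesis, 5 of 12 for kinetochore and checkpoint, 4 of 12 for mitotic entry and 4 of 13 for cohesin, condensin and chromosome structure. In kinetochore and checkpoint 3 rows rose as well, in mitotic entry 1 (LIN9), and in the anaphase-promoting complex 1 of 5 rose and none fell. Of the S phase lists, origin licensing and helicase had 3 rises among 12 rows, G1/S regulators 3 rises and 1 fall among 7, nucleotide supply 2 rises among 6, and DNA polymerases and fork proteins 1 rise and 1 fall among 16. None of 7 chromatin assembly rows was called. After cynaroside the falls in the mitosis lists were 6 of 10 for spindle and motors, 4 of 12 for kinetochore and checkpoint, 4 of 13 for cohesin, condensin and chromosome structure, 3 of 12 for mitotic entry, 1 of 5 for cytokinesis and 0 of 5 for the anaphase-promoting complex. Those in the S phase lists were 5 of 16 for DNA polymerases and fork proteins, 3 of 12 for origin licensing and helicase, 2 of 7 for chromatin assembly, 1 of 6 for nucleotide supply and 0 of 7 for G1/S regulators. Rises were 2 for DNA polymerases and fork proteins and 1 each for nucleotide supply, G1/S regulators, mitotic entry and cohesin, condensin and chromosome structure.

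Genes of the class named for their rise after FEBJ were on both S phase and mitosis lists, and their log2 fold changes are from the fit of all deposited rows. CDT1, which loads the helicase onto origins, held 167 and 214 counts after FEBJ, 9 and 34 after cynaroside and 23 and 58 in DMSO. Its log2 fold change for FEBJ was 2.48 ± 0.32 (adjusted p = 1.48e-07 by edgeR), or 3.20 ± 0.37 within the class. DSCC1, of an alternative clamp loader, held 265 and 312 counts after FEBJ, 29 and 62 after cynaroside and 33 and 81 in DMSO (2.59 ± 0.26 for FEBJ). LIN9, a subunit of the MuvB complex from the mitotic entry list, held 186 and 254 counts after FEBJ, 20 and 91 after cynaroside and 24 and 31 in DMSO (3.19 ± 0.30 for FEBJ). All of these rises held without any 1 library on both scales.

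TOP2A, the topoisomerase of mitotic chromosomes, held 19 and 22 counts after FEBJ, 19 and 90 after cynaroside and 227 and 298 in DMSO. Its log2 fold change was -3.47 ± 0.31 for FEBJ (adjusted p = 2.01e-10 by edgeR) and -2.00 ± 0.28 for cynaroside. Within the class these were -2.75 ± 0.39 and -1.14 ± 0.35, and the cynaroside call ended without cynaroside 1 (-0.74, adjusted p = 0.129), DMSO 1 (-1.15, adjusted p = 0.119) or DMSO 2 (-1.22, adjusted p = 0.0901), by edgeR. MKI67, the Ki-67 protein of proliferating cells, held 38 and 43 counts after FEBJ, 38 and 140 after cynaroside and 201 and 320 in DMSO (-2.46 ± 0.26 for FEBJ, or -1.74 ± 0.33 within the class). For cynaroside it was called lower in all deposited rows (-1.24 ± 0.24, adjusted p = 0.000167 by edgeR). Within the class it was not called for cynaroside (-0.37 ± 0.31, adjusted p = 0.379 by edgeR), so that call depends on the scaling. PDS5A, a regulator of cohesin, held 6 and 8 counts after FEBJ, 2 and 12 after cynaroside and 91 and 132 in DMSO (-3.77 ± 0.52 for FEBJ, or -3.05 ± 0.60 within the class).

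After cynaroside the class rows named for their falls included spindle genes and replication genes. TPX2, a spindle assembly factor, held 13 and 27 counts after cynaroside and 153 and 237 in DMSO (-2.88 ± 0.36, or -1.99 ± 0.42 within the class). CENPF, a kinetochore protein, held 2 and 9 counts after cynaroside and 75 and 190 in DMSO (-4.18 ± 0.54, or -3.29 ± 0.62 within the class). CKAP5, a microtubule polymerase, held 0 and 6 against 78 and 157 (-4.91 ± 0.64, or -4.03 ± 0.73 within the class). Without cynaroside 2, which leaves CKAP5 at 0 counts in that group, the value fitted to all deposited rows was -9.57 and is no bound. TPX2, CENPF and CKAP5 were also called lower after FEBJ by edgeR, at -2.27, -3.50 and -3.34. Within the class they were at -1.55, -2.78 and -2.62 after FEBJ. Each of these class calls ended without DMSO 2 (-1.51, -2.33 and -2.37), and that of TPX2 also without FEBJ 2 (-1.16). MCM3, a partner of MCM2 in the helicase, held 2 and 14 counts after cynaroside and 103 and 134 in DMSO (-3.59 ± 0.48, or -2.71 ± 0.55 within the class). SUPT16H, the partner of SSRP1 in FACT, held 10 and 32 against 116 and 198 (-2.54 ± 0.36, or -1.66 ± 0.42 within the class). After FEBJ the MCM3 row held 44 and 35 counts (-1.35 ± 0.39), so it did not follow the MCM2 reading. That call ended without FEBJ 2 (adjusted p = 0.0802 by edgeR), and within the class MCM3 was not called (-0.63, adjusted p = 0.293). The class call of SUPT16H for cynaroside ended without DMSO 2 (-1.54). For FEBJ edgeR called SUPT16H lower in all deposited rows (-1.645) and not within the class (-0.93), though with RLE scaling the class row was called.

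**Figure D5:**
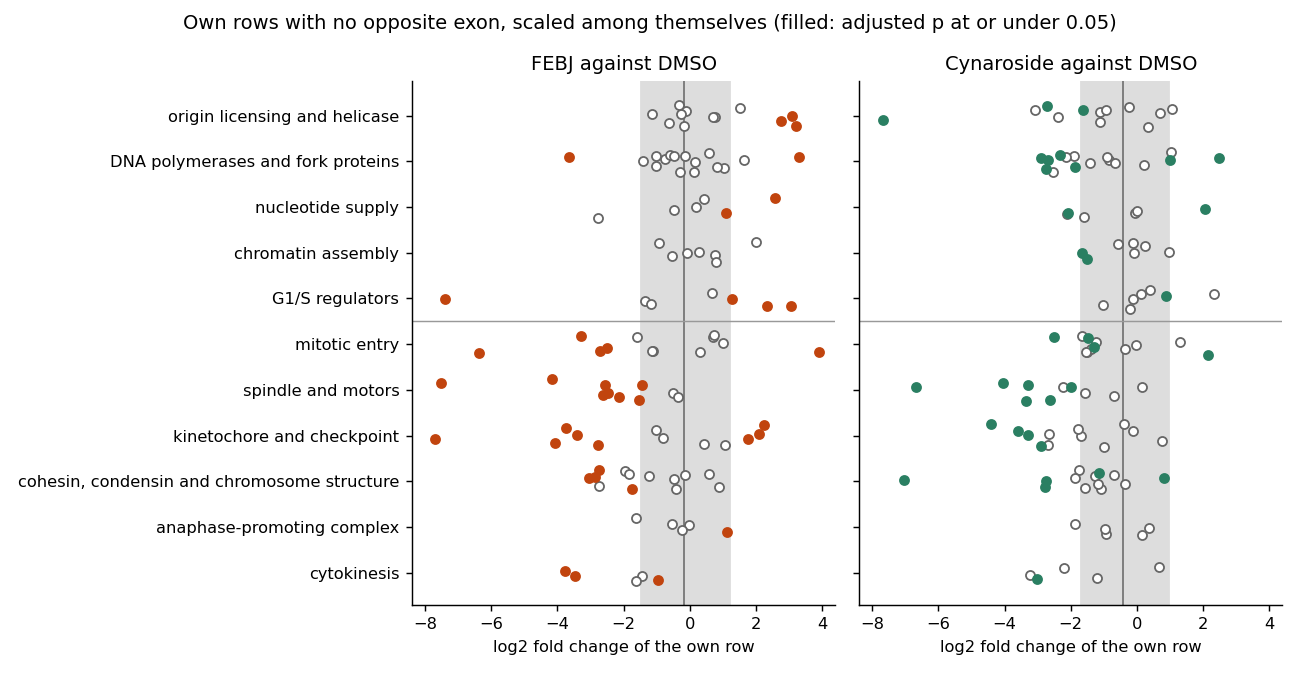
Log2 fold change against DMSO (x axis) of own rows with no opposite exon, scaled among themselves, by list (y axis; S phase above the line, mitosis below), FEBJ left and cynaroside right; filled points are past the adjusted p of 0.05, grey bands hold the middle of the class between its quartiles, grey lines its medians of -0.18 and -0.41. Single points at the far left are fitted values of genes with 0 counts after treatment and are no bounds. Of the 10 spindle and motor rows 8 fell after FEBJ and 6 after cynaroside.

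Other named rows have an annotated exon of another gene on the other strand, and their counts may be reads of that gene. Rows that rose after FEBJ were CCNA2, opposite EXOSC9 (2.64 ± 0.11), TYMS, opposite ENOSF1 (1.78 ± 0.15), PKMYT1, opposite PAQR4 (0.90 ± 0.08), TICRR, opposite KIF7 (0.98 ± 0.13), and BORA, opposite DIS3 (2.00 ± 0.27). Rows that fell were NCAPD3, opposite JAM3 (-1.33 ± 0.08), RBBP4, opposite SYNC (-1.61 ± 0.16), ANLN, opposite MATCAP2 (-3.64 ± 0.41), and ANAPC10, opposite ABCE1 (-2.24 ± 0.29). After cynaroside BORA (2.06 ± 0.27), TICRR (0.86 ± 0.13) and PKMYT1 (0.51 ± 0.08) rose too. So did E2F5 (0.90 ± 0.11), MTHFD1 (1.13 ± 0.14), NUMA1 (0.77 ± 0.14), NCAPG (0.75 ± 0.14) and CDC25C (1.41 ± 0.27), while ANLN (-3.17 ± 0.41) and CDCA3 (-1.44 ± 0.20) fell. For cynaroside the MTHFD1 row and its opposite-strand reading (-0.18) had opposite signs, but these values are on unlike scalings. With the TMM factors of all deposited rows the reading was at 0.285, the same sign as the row.

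Genes whose levels over the 6 libraries were most like each of the 6 were ranked by Euclidean distance between centred log2 CPM, among 1083 genes with a mean of at least 50 CPM. For HMMR the nearest was CLSPN (distance 0.16 log2, Pearson r = 0.988 over 6 libraries), which is itself on an S phase list, followed by RPAIN (0.22) and REXO1 (0.23). The nearest to MCM2 were EMC9 (0.26), ZFAT (0.36) and ISL2 (0.40), and to CHAF1A they were EFNB2 (0.23), TEPSIN (0.25) and CSAD (0.27). EIF2B2 (0.23), OSGEP (0.25) and VPS51 (0.25) lay nearest to RRM1, OXCT1 (0.20), GNPNAT1 (0.23) and CAVIN3 (0.23) to PLK1, and ATL3 (0.21), CSNK2A3 (0.24) and GHITM (0.27) to CDC27. Among the 6 genes the closest pair was RRM1 and CHAF1A (0.68), and the farthest was MCM2 and CDC27 (4.27). RRM1 and HMMR (0.80) were closer than RRM1 and MCM2 (1.28).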

How the data were processed

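The authors deposited raw counts per gene and library. Per the submitters' processing notes the tools were CASAVA 1.7, HISAT2, HTSeq 0.12.4 and DESeq2 1.38.0 with hg19; the annotation release and strand setting are not given in the sources used here. Each table held 62754 gene rows and 5 summary rows. The summary rows, of which reads outside features made up 87.4 to 88.3% of all counts, entered neither library sizes nor tests. Overlaps came from GENCODE 29 on GRCh38, which held 58261 of the rows. The opposite-strand reading summed 1828 non-coding features whose count was no lower than that of the gene row they face, a condition not applied to the 6 genes. In R 4.3.3, edgeR 4.0.16 was used with filterByExpr, TMM scaling, a model of 3 group means over all 6 libraries (3 residual degrees of freedom), its quasi-likelihood test and Benjamini-Hochberg adjustment over all rows of a fit, threshold 0.05. Standard errors are the log2 fold change over the root of F. Alternatives were RLE scaling, TMM factors of all deposited rows, other filters, overlaps of 1 and 200 bp, no count condition, a replicate block, the 4 libraries compared, each library left out, and DESeq2 1.42.0. On simulated counts for FEBJ against DMSO, 67.2, 91.0 and 100.0% of changes of 1.5, 2 and 4-fold were recovered among 1423 genes of the reading, and 41.8, 52.2 and 81.8% among 11098 deposited rows. The simulation changed 66 or 67 rows at each fold, where 517 rose and 500 fell in the reading itself. The changed rows were drawn only from those above a minimum mean count, so these shares do not cover rows of fewer counts. The members and lists were chosen with earlier results of these data known. Outside the 6 genes, listed genes called in the reading were named, as were in each comparison the 8 rises and 8 falls of smallest p among listed deposited rows with a mean of at least 5 CPM, of which 1 is not reported here.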

Additional observations from a re-analysis of the deposited data

How the results depend on the processing

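For 48 values and counts 668 alternative values were computed, of which 585 stayed within the spread of replicates or 1.5 times the count. For cynaroside against DMSO, MCM2 changed sign to 0.314 and RRM1 to 0.330 with the TMM factors of all deposited rows. CDC27, at 0.0043, came to -0.0069 with a replicate block, to -0.0054 without a count condition and to between -0.21 and 0.17 with a library left out. In the opposite-strand reading the TMM factors of all deposited rows also gave 739 rises and 100 falls over all genes after cynaroside, against 291 and 311. It gave 11 rises and 0 falls for S phase and 1 fall for mitosis after cynaroside, and 1 S phase fall after FEBJ. An overlap of 200 bp, which leaves 2 of the 6 genes (MCM2 and PLK1), gave 3 S phase rises and 2 mitosis falls after FEBJ and 0 S phase falls after cynaroside. The count of mitosis falls after FEBJ was 2 without a count condition and with the 4 libraries compared. DESeq2 gave 0 S phase falls after cynaroside. In deposited rows the 4 libraries compared gave 5 mitosis rises after cynaroside. Scaling within rows with no opposite exon, which tests fewer genes, gave 9 rises and 2 falls for S phase and 5 and 24 for mitosis after FEBJ, and 4 and 11 and 2 and 18 after cynaroside.

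Leaving out each library in turn gave, in the reading, 1 to 2 mitosis falls after FEBJ (2 without either cynaroside library) and 0 to 1 S phase falls after cynaroside (0 without DMSO 1 or either cynaroside library). In deposited rows it gave 13 to 25 S phase falls after FEBJ, 5 to 7 S phase rises and 45 to 70 mitosis falls after cynaroside, lowest without DMSO 1, and for the last also without DMSO 2. Within the class it gave, after FEBJ, 5 to 14 rises and 1 to 5 falls for S phase and 2 to 5 rises and 10 to 29 falls for mitosis. After cynaroside it gave 2 to 5 rises and 3 to 12 falls for S phase and 1 to 2 rises and 7 to 20 falls for mitosis. The alternatives within the class were chosen after the data were seen. Replicate numbers are shared between groups but name no shared culture. The difference between replicates 1 and 2, gene by gene, correlated at 0.034 between FEBJ and DMSO, -0.0062 between FEBJ and cynaroside and -0.075 between cynaroside and DMSO. With a replicate block mitosis rises within the class after cynaroside came to 1, against 2. The cause of these changes was not tested. With 2 libraries per group of unstated origin and own rows of often under 100 counts, small changes of own rows could not be detected.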

Other observations

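RRM2 lies outside the rule for names and was chosen after its values were seen. The RRM2 row, the small subunit of ribonucleotide reductase and partner of RRM1, has no opposite exon and held 97 and 165 counts after FEBJ, 49 and 84 after cynaroside and 28 and 54 in DMSO. Within its class its log2 fold change was 2.59 ± 0.35 for FEBJ and 2.05 ± 0.36 for cynaroside. With a library left out these ranged from 2.32 to 2.8 and from 1.8 to 2.28. Because the gene was chosen on these values, they are described without a test. The RRM1 reading, which overlapped with DMSO after cynaroside, is of an opposite row on another scaling and is not comparable. The own row of RRM1 was at -2.72 ± 0.80 for cynaroside in the fit of all deposited rows.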
